A study of Homo sapiens with 12 samples.

Results

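The genes at the centre of the epithelial to mesenchymal transition (EMT) were followed in A172 cells that received siRNAs against uc.110, 10 in all: 6 transcription factors (SNAI1, SNAI2, ZEB1, ZEB2, TWIST1 and TWIST2), 3 cadherins (CDH1, CDH2 and CDH11) and EPCAM. They were taken by symbol from the protein-coding rows of the deposited table, where each symbol had 1 row, and made up 10 of the 45483 gene intervals used. A172 is an established human glioblastoma cell line, labelled as wild-type adherent glioma cells, and uc.110 is an ultraconserved element on chromosome 2. The groups were A172 cells given siRNA-1 against uc.110, A172 cells given siRNA-2 against uc.110 and A172 cells given a scrambled control siRNA; each had 4 libraries, 12 in all. All groups shared the same transfection, 3 µL of a 20 µM siRNA with 9 µL of Lipofectamine 2000 for 6 h, and RNA was collected on day 2. The scrambled group was transfected as well, and an untransfected group was not analysed here.

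EMT is the programme by which epithelial cells loosen their junctions and become motile. The SNAI, ZEB and TWIST proteins bind E-box motifs, and the SNAI and ZEB proteins repress CDH1, the gene of the epithelial E-cadherin. Mesenchymal and neural cells carry CDH2 (N-cadherin) in place of E-cadherin. Glioma cells are not epithelial, so in this tissue the factors are usually described in terms of a mesenchymal state and invasion, and not of a full transition.

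The libraries held 43327451 to 53610561 reads over the gene intervals, and all 10 genes passed the filter on low counts. The region of uc.110 itself (chr2:236162738-236162980, hg38) held 2, 0, 1 and 2 reads with siRNA-1, 3, 0, 4 and 0 reads with siRNA-2, and 4, 0, 1 and 6 reads with the scrambled siRNA, too few to check the knockdown. Of 8 glioma and glial markers, 7 were above 1 CPM (read counts scaled to a common library size, with sizes set by TMM) in every library, and S100B had 1 read in all 12 libraries. Reads in the ribosomal RNA interval with the most reads equalled 5.92% of gene reads in replicate 3 of siRNA-1, 3.15% in replicate 2 of siRNA-2, and 0.588% to 1.80% in the other libraries. Scrambled replicate 1 had 1686 intervals with reads in no other library, against 92 to 179 in each other library. Whether the 4 libraries of a group are separate cultures is not in the labels, and all p-values measure the spread between these libraries, which may be technical.

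In all groups the cadherin of mesenchymal and neural cells was high and that of epithelia close to absent. CDH2 had the highest level of the 10 per kb of annotated exon, with a mean over the groups of 90.3 CPM per kb, 4.82 times that of TWIST1 at 18.7 CPM per kb. TWIST2 followed with 9.48, ZEB1 with 6.41 and CDH11 with 2.78 CPM per kb. The lower part of the order was SNAI2 with 1.38, ZEB2 with 1.25, SNAI1 with 1.01, EPCAM with 0.481 and CDH1 with 0.0773 CPM per kb. SNAI2 and ZEB2 overlapped in every group, and ZEB2 and SNAI1 overlapped with siRNA-1 and with the scrambled siRNA. In the other 22 of 27 comparisons of neighbours within a group, all 4 libraries of the higher gene lay above all 4 of the lower one. The order between genes rests on exon length: CDH2 stayed highest per kb of interval, but by 1.98 times, and SNAI2 then came next. The reads divided by exon length are those of whole intervals, so they can lie outside the exons. For TWIST1 the interval spans 96681 bases and the exons 2033, and the interval extends beyond the RefSeq gene.

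**Figure D1:**
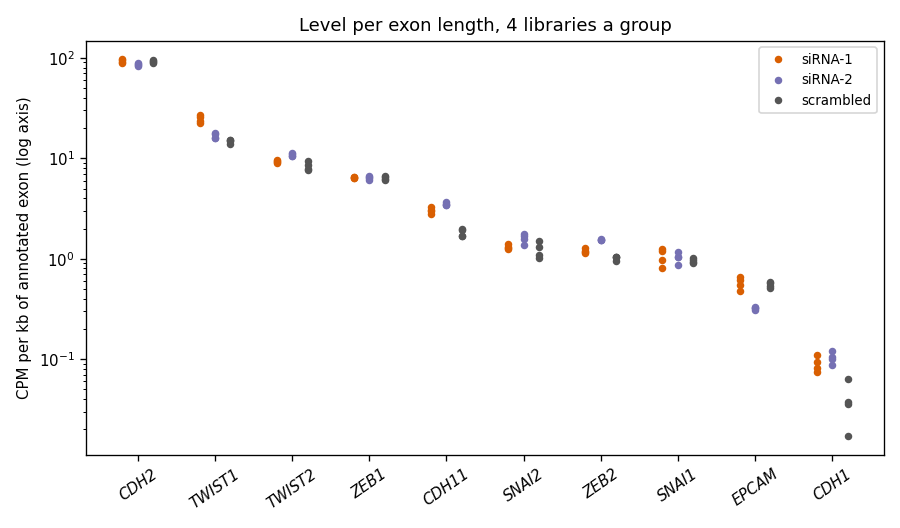
Level of each gene in CPM per kb of annotated exon (log axis), with 1 point per library for siRNA-1, siRNA-2 and scrambled (4 libraries a group). CDH2 lies highest and CDH1 lowest in every group, and the points of SNAI2, ZEB2 and SNAI1 lie close together.

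With siRNA-1, 5 of the 10 genes passed the test against scrambled (edgeR quasi-likelihood with Benjamini-Hochberg adjustment over all 25174 genes tested, threshold 0.05), all higher: ZEB2, TWIST1, TWIST2, CDH1 and CDH11. With siRNA-2, 8 of 10 passed: SNAI2, ZEB2, TWIST1, TWIST2, CDH1 and CDH11 were higher, and CDH2 and EPCAM were lower. These counts stand against 53.5% of all tested genes called with siRNA-1 (28.7% higher) and 56.2% called with siRNA-2 (30.0% higher and 26.2% lower). The median log2 fold change of the 10 genes was 0.15 with siRNA-1 and 0.28 with siRNA-2, beside 0.01 over all tested genes in both comparisons. CDH1 was called at 2-fold or more in both, as were 7.46% of tested genes with siRNA-1 and 8.77% with siRNA-2. Both comparisons use the same scrambled libraries. In bulk RNA, fewer cells of a kind and less RNA per cell cannot be told apart.

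**Figure D2:**
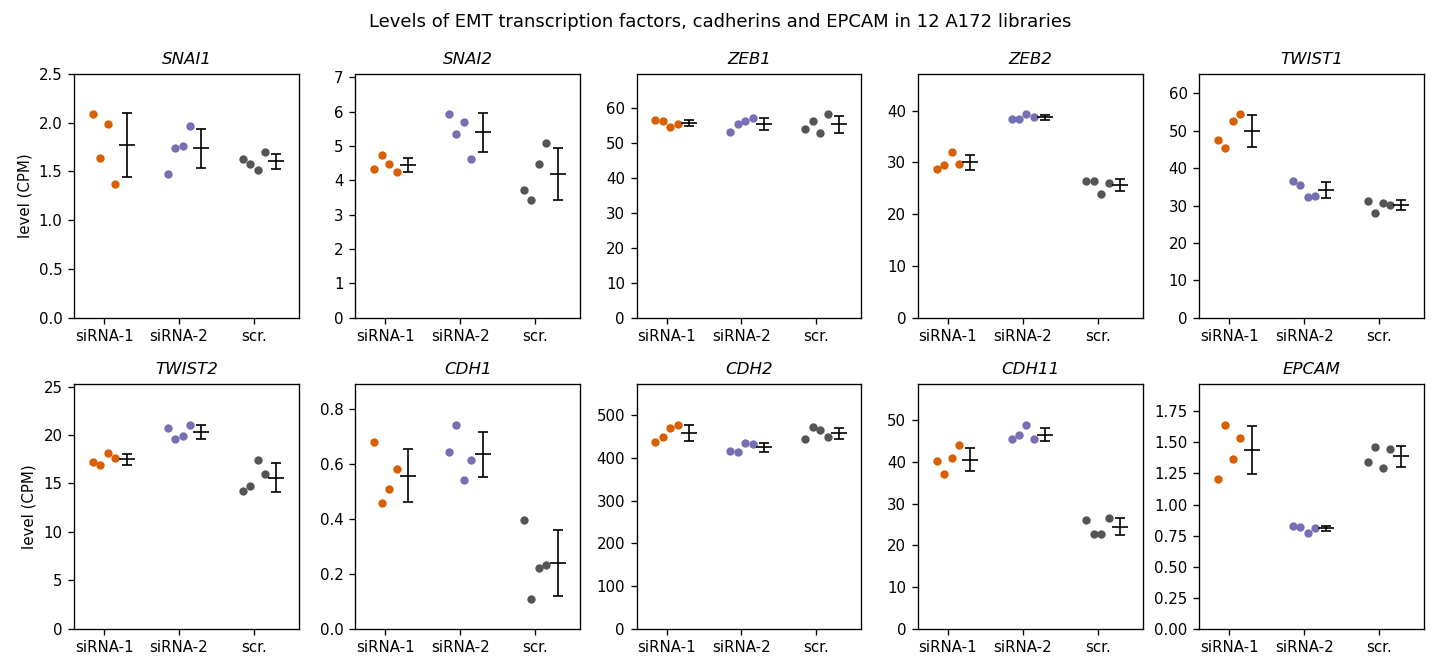
Level of the 10 genes in CPM in each of 12 libraries, with siRNA-1, siRNA-2 and scrambled (scr.) from left to right; points are libraries in replicate order, and bars are the mean ± SD (n = 4). ZEB2, TWIST1, CDH1 and CDH11 lie above scrambled with both siRNAs, and EPCAM lies below with siRNA-2.

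The SNAI factors were low, and of their 4 comparisons with scrambled 1 passed the test, SNAI2 with siRNA-2. SNAI1, the zinc-finger repressor best known for acting on CDH1 (chr20:49982976-49988886, plus strand, hg38), had 1.37 to 2.09 CPM with siRNA-1, 1.47 to 1.96 CPM with siRNA-2 and 1.52 to 1.70 CPM with the scrambled siRNA. These groups overlapped and neither comparison passed the test, with log2 fold changes of 0.14 (95% interval -0.17 to 0.45, adjusted p = 0.474) and 0.12 (-0.19 to 0.42, adjusted p = 0.55).

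SNAI2, its paralog in neural crest and mesenchymal cells (chr8:48916084-48921740, minus strand), had 4.35, 4.73, 4.47 and 4.24 CPM with siRNA-1, 5.93, 5.36, 5.71 and 4.62 CPM with siRNA-2, and 3.72, 3.42, 4.47 and 5.10 CPM with the scrambled siRNA. The scrambled libraries were the most spread, and replicate 4 lay inside the siRNA-2 range. SNAI2 was higher with siRNA-2 by a log2 fold change of 0.37 (adjusted p = 0.00795, SE 0.11), while siRNA-1 gave 0.09 (95% interval -0.14 to 0.32, adjusted p = 0.545). Without scrambled replicate 2 the siRNA-2 change was 0.27 and no longer passed (adjusted p = 0.0538). The difference between the siRNAs was 0.28 (adjusted p = 0.0641, SE 0.11).

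The ZEB pair parted. ZEB1 and ZEB2 are large zinc-finger proteins that repress CDH1 and are themselves repressed by the microRNAs of the miR-200 family. ZEB2 was higher with both siRNAs and ZEB1 did not pass the test with either. ZEB2 (chr2:144375819-144521057, minus strand, hg38) had 28.6, 29.5, 32.1 and 29.7 CPM with siRNA-1, 38.3, 38.4, 39.3 and 38.8 CPM with siRNA-2, and 26.4, 26.4, 24.0 and 26.0 CPM with the scrambled siRNA. The 3 groups did not overlap, and the siRNA-2 libraries were both the highest and the closest together. The log2 fold change was 0.22 with siRNA-1 (1.17-fold, adjusted p = 3.05e-04, SE 0.05) and 0.59 with siRNA-2 (1.51-fold, adjusted p = 6.43e-11, SE 0.05). Groups that do not overlap were found for 47.6% of tested genes with siRNA-1 (4 of the 10: ZEB2, TWIST1, CDH1 and CDH11) and for 51.9% with siRNA-2 (7 of the 10: these 4, TWIST2, CDH2 and EPCAM). ZEB2 kept its direction and its call in all 17 alternatives of both comparisons.

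To show what the paralogs share, the members of the miR-200 family are given below as mature sequences from RefSeq (GRCh38.p14), 5′ to 3′, with the seed (bases 2 to 8) in capitals.
hsa-miR-200b-3p: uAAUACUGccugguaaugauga
hsa-miR-200c-3p: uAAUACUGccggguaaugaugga
hsa-miR-429: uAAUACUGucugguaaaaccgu
hsa-miR-200a-3p: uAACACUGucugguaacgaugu
hsa-miR-141-3p: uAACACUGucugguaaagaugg
The upper 3 share the seed AAUACUG and the lower 2 the seed AACACUG. The letters that pair with the upper seed, CAGTATT, occurred 6 times in the 3′ UTR of ZEB1 and 5 times in that of ZEB2 (GENCODE v29, GRCh38, sense strand), 1 time in each of SNAI2 and CDH11, and in none of the other 6 genes. CAGTGTT, which pairs with the lower seed, occurred 3 times in ZEB1, 4 times in ZEB2 and in no other of the 10. Over 19128 protein-coding genes, 16.0% had a CAGTATT and 18.3% a CAGTGTT in the 3′ UTR, whose median length was 1102.5 bases against 2549 in ZEB1 and 5370 in ZEB2. Some of the matched sites are given below as DNA letters with the match in capitals and its position counted from the start of the 3′ UTR.
ZEB1 at 369 to 375: ttgttttatcttatCAGTATTa
ZEB1 at 1313 to 1319: gtcttcaaacctggCAGTATTa
ZEB1 at 1533 to 1539: gagatttgatttaaCAGTGTTa
ZEB2 at 455 to 461: gcactacaatgcatCAGTATTa
ZEB2 at 813 to 819: tgaagcacccatgtCAGTATTa
ZEB2 at 208 to 214: gcaaaaattttgtaCAGTGTTa
The 5 hairpin intervals and the interval of MIR200CHG, the host transcript of miR-200c and miR-141, held 0 reads in all 12 libraries. These intervals were looked at after other values were seen, and reads on a hairpin do not measure the mature microRNA. A match of letters is a description and not a site in use.

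ZEB1 (chr10:31318416-31529814, plus strand) had 54.5 to 56.4 CPM with siRNA-1, 53.0 to 57.1 CPM with siRNA-2 and 52.8 to 58.1 CPM with the scrambled siRNA. The groups lay on top of each other, with log2 fold changes of 0.01 (95% interval -0.07 to 0.09, adjusted p = 0.852) and 0.00 (-0.08 to 0.08, adjusted p = 0.945). Other genes share these reads: LOC100505502, inside ZEB1 on the opposite strand, held 17.7% of ZEB1's reads. ZEB1-AS1 overlaps ZEB1 only in part, and its reads come to at most 14.3% of ZEB1's. LOC100505502 had 478, 511, 456 and 515 reads with siRNA-1, 447, 587, 600 and 606 reads with siRNA-2, and 311, 379, 377 and 373 reads with the scrambled siRNA, so its reads were higher with the siRNAs while those of the whole ZEB1 interval were level. With all reads of both genes subtracted, which takes off ZEB1-AS1 reads that may lie outside ZEB1, ZEB1 was lower with siRNA-2 by a log2 fold change of -0.16 (adjusted p = 0.00575, SE 0.05), and siRNA-1 gave -0.10 (adjusted p = 0.0869).

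The stretches before the start of ZEB1 and of ZEB2 are printed because the paralogs moved differently and because the 10 genes include the factors that bind E-boxes. They are the 250 bases upstream of a RefSeq start (GRCh38.p14), 5′ to 3′ on the gene's strand, with each E-box (CANNTG, which reads the same on both strands) in capitals.
ZEB2 chr2:144520120-144520369, minus strand: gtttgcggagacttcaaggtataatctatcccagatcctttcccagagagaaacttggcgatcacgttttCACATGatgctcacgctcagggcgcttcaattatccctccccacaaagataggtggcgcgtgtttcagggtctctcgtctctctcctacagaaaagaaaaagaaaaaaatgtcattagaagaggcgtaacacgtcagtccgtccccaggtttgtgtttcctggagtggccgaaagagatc
ZEB1 chr10:31318167-31318416, plus strand, the first of its starts: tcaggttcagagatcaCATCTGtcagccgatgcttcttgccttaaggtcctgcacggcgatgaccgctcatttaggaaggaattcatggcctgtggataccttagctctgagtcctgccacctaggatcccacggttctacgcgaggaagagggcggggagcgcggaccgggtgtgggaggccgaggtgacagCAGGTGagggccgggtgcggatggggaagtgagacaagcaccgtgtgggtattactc
The ZEB2 stretch held 1 E-box, CACATG, and the ZEB1 stretch held 2, CATCTG and CAGGTG. Stretches at the other starts of ZEB1 held 0, 1 or 2 E-boxes, so the number for ZEB1 depends on the start chosen. An E-box was found in 61.8% of the 35116 RefSeq promoter stretches of this length, and CAGGTG or its reverse complement CACCTG in 17.5%. The stretches of TWIST2 and of the first start of CDH2 held none, and that of another start of CDH2 held 1, CAGATG.

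ZEB2 also holds 6 of the 481 ultraconserved regions of the table, the class to which uc.110 belongs: uc.75, which the table lists as exonic, uc.78, listed as partly exonic, and the intronic uc.76, uc.77, uc.79 and uc.80. The reads of uc.78, uc.79 and uc.80 were the same in all 12 libraries, so the 6 regions gave 4 separate profiles. Reads shared in this way cannot be placed on 1 of the regions and may not lie on any of them. A long noncoding interval inside ZEB2 on the opposite strand (chr2:144444848-144450450) lies outside uc.78, uc.79 and uc.80 and had nearly the same reads. It held 39, 44, 51 and 38 reads with siRNA-1, against 39, 44, 51 and 38 in the shared profile. With siRNA-2 it held 53, 66, 69 and 64, against 53, 65, 65 and 64. With the scrambled siRNA it held 42, 38, 45 and 26, against 40, 37, 44 and 24. This interval held 3.16% of ZEB2's reads. uc.75 averaged 1.42 ± 0.231 CPM with siRNA-1, 1.56 ± 0.261 CPM with siRNA-2 and 1.19 ± 0.126 CPM with the scrambled siRNA (SD, n = 4 each). The profile shared by uc.78, uc.79 and uc.80 averaged 0.935 ± 0.171 CPM with siRNA-1, 1.23 ± 0.0225 CPM with siRNA-2 and 0.765 ± 0.18 CPM with the scrambled siRNA. All 4 profiles lay above scrambled in every siRNA-2 library, which gives p = 0.0286 in a two-sided exact permutation test, the smallest that 4 against 4 allows, and 0.0571 after Benjamini-Hochberg adjustment over 8 tests. With siRNA-1 the exact p was 0.143 for uc.75, 0.486 for uc.76, 0.743 for uc.77 and 0.286 for the shared profile. The reads of these regions are part of ZEB2's own reads, 2.32% to 4.41% each.

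**Figure D3:**
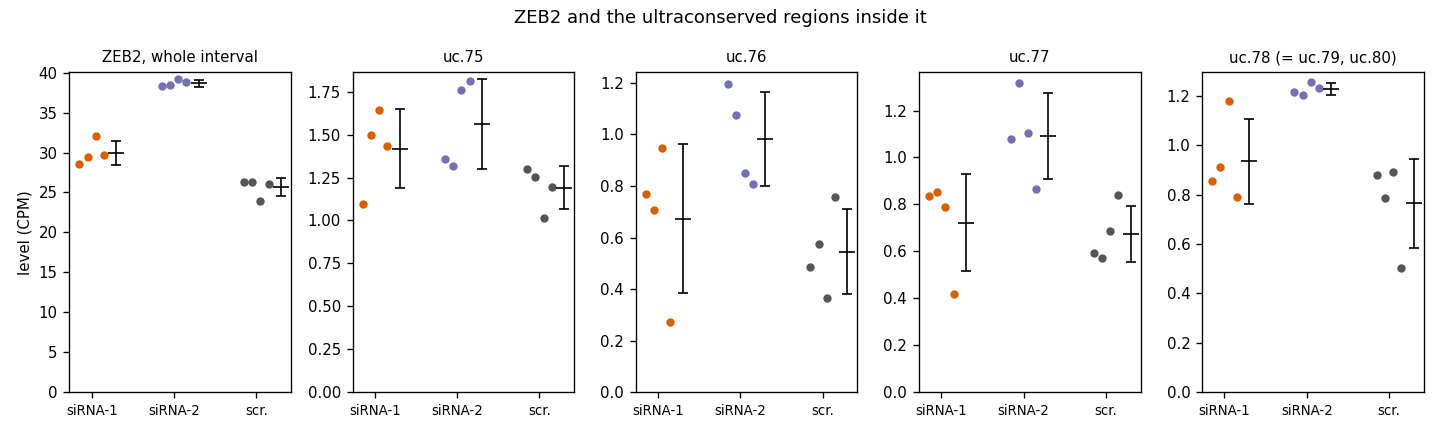
Level in CPM of the whole ZEB2 interval and of the 4 separate profiles of the 6 ultraconserved regions inside it, in libraries with siRNA-1, siRNA-2 and scrambled (scr.); points are libraries and bars the mean ± SD (n = 4). The siRNA-2 libraries lie above the scrambled ones in every panel.

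TWIST1 and TWIST2, basic helix-loop-helix factors that act as dimers with E proteins, were both higher, with opposite emphasis. TWIST1 had 47.6, 45.3, 52.7 and 54.4 CPM with siRNA-1, 36.6, 35.5, 32.2 and 32.7 CPM with siRNA-2, and 31.2, 28.1, 30.8 and 30.1 CPM with the scrambled siRNA. All siRNA-1 libraries lay far above the rest, and the siRNA-2 libraries lay narrowly above the scrambled ones. The log2 fold change was 0.73 with siRNA-1 (1.66-fold, adjusted p = 8.73e-11, SE 0.06) and 0.19 with siRNA-2 (1.14-fold, adjusted p = 0.00796, SE 0.06). The siRNA-2 call was lost without siRNA-2 replicate 1 (0.13, adjusted p = 0.0649) and without the 2 libraries with the most ribosomal RNA (0.14, adjusted p = 0.0602). The interval of TWIST1 runs over chr7:19020991-19117672 (minus strand), whereas the RefSeq gene starts at 19113047, so its count can include reads from beyond the end of the gene. A long noncoding interval inside it, LOC105375174, held 7.87% of its reads.

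TWIST2 (chr2:238848032-238910548, plus strand) had 17.2, 16.9, 18.2 and 17.6 CPM with siRNA-1, 20.7, 19.6, 19.9 and 21.0 CPM with siRNA-2, and 14.2, 14.7, 17.5 and 16.0 CPM with the scrambled siRNA. The siRNA-2 libraries stood clear of all others, while scrambled replicate 3 reached into the siRNA-1 range. TWIST2 was higher with siRNA-2 by a log2 fold change of 0.38 (1.30-fold, adjusted p = 5.47e-06, SE 0.06). The siRNA-1 change of 0.16 (adjusted p = 0.0247, SE 0.06) no longer passed in 10 of 17 alternatives, and over all 17 the adjusted p lay between 0.00297 and 0.198. CHESS2393, a noncoding interval inside TWIST2 on the opposite strand, held 15.1% of its reads.

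Among the cadherins, CDH11 changed most firmly and CDH1 by the largest fold at the lowest level. CDH11 (chr16:64942763-65126112, minus strand), the OB-cadherin of osteoblasts and other mesenchymal cells, had 40.3, 37.1, 40.8 and 44.0 CPM with siRNA-1, 45.4, 46.4, 48.8 and 45.5 CPM with siRNA-2, and 26.0, 22.6, 22.7 and 26.4 CPM with the scrambled siRNA. Every library of either siRNA lay above every scrambled library by a wide gap. CDH11 was higher by a log2 fold change of 0.73 with siRNA-1 (1.66-fold, adjusted p = 6.92e-11, SE 0.06) and of 0.93 with siRNA-2 (1.90-fold, adjusted p = 5.82e-13, SE 0.06). It was called in the same direction in all 17 alternatives of each comparison, with a log2 fold change between 0.68 and 0.77 for siRNA-1 and between 0.88 and 0.97 for siRNA-2.

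CDH2 (chr18:27905034-28177446, minus strand), the N-cadherin that links glial and neural cells, had 438, 448, 471 and 477 CPM with siRNA-1, 416, 414, 436 and 433 CPM with siRNA-2, and 445, 472, 465 and 449 CPM with the scrambled siRNA. The siRNA-2 libraries lay just below all scrambled ones, and the siRNA-1 libraries were mixed with them. CDH2 was lower with siRNA-2 by a small log2 fold change of -0.11 (0.928-fold, adjusted p = 0.016, SE 0.04), which did not pass without siRNA-2 replicate 2 (-0.09, adjusted p = 0.062). With siRNA-1 the estimate was 0.00 (95% interval -0.07 to 0.08, adjusted p = 0.958). CHESS1806, a noncoding interval inside CDH2 on the opposite strand, held 4.33% of CDH2's reads.

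CDH1 (chr16:68734526-68837663, plus strand), the E-cadherin gene and classical target of the SNAI and ZEB repressors, was near the bottom of the range that could be tested. It had 31, 22, 22 and 28 reads with siRNA-1, 28, 40, 28 and 32 reads with siRNA-2, and 18, 5, 11 and 11 reads with the scrambled siRNA. On the CPM scale these were 0.681, 0.457, 0.509 and 0.583 with siRNA-1, 0.643, 0.742, 0.542 and 0.616 with siRNA-2, and 0.396, 0.106, 0.223 and 0.231 with the scrambled siRNA. Every siRNA library lay above every scrambled library, and scrambled replicate 1 came closest. The log2 fold change was 1.22 with siRNA-1 (2.33-fold, adjusted p = 0.0023, SE 0.32) and 1.41 with siRNA-2 (2.66-fold, adjusted p = 4.33e-04, SE 0.31). CDH1 rose with both siRNAs, as ZEB2 did, and its level stayed under 1 CPM in every library. CDH1 passed the filter on low counts through its siRNA libraries; with no filter the log2 fold change was 1.199 with siRNA-1 and 1.39 with siRNA-2, and both were called (adjusted p = 0.00195 and 1.87e-04). Without scrambled replicate 1 the change was 1.54 with siRNA-1 and 1.74 with siRNA-2.

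EPCAM (chr2:47345166-47387205, plus strand), an adhesion molecule of simple epithelia, went the other way with siRNA-2. It had 55, 79, 59 and 74 reads with siRNA-1, 36, 44, 40 and 42 reads with siRNA-2, and 61, 69, 64 and 69 reads with the scrambled siRNA. These were 1.21, 1.64, 1.37 and 1.54 CPM with siRNA-1, 0.827, 0.816, 0.774 and 0.809 CPM with siRNA-2, and 1.34, 1.47, 1.30 and 1.45 CPM with the scrambled siRNA. All siRNA-2 libraries lay below all others. EPCAM was lower with siRNA-2 by a log2 fold change of -0.78 (0.582-fold, adjusted p = 3.41e-04, SE 0.17). With siRNA-1 the change was 0.05 (95% interval -0.27 to 0.37, adjusted p = 0.806). The interval starts upstream of the RefSeq start at 47369311, and MIR559 inside it held 4.48% of its reads.

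**Figure D4:**
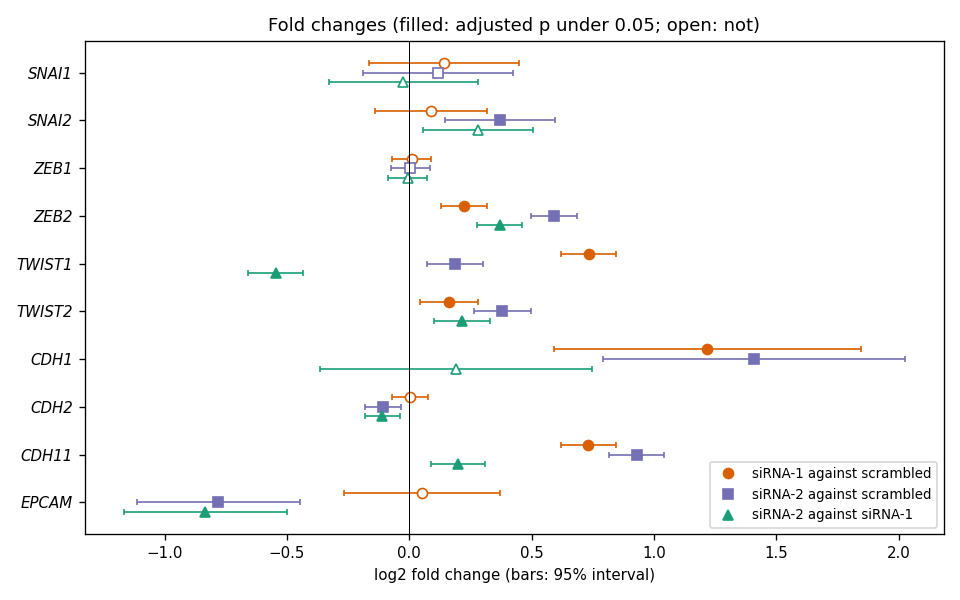
Log2 fold change of each gene in 3 comparisons, namely either siRNA set against scrambled and siRNA-2 set against siRNA-1 (edgeR, 4 libraries a group); bars are 95% intervals, and filled symbols have an adjusted p under 0.05. CDH11 and CDH1 lie right of 0 with both siRNAs, TWIST1 lies further right with siRNA-1 than with siRNA-2, and EPCAM lies left of 0 with siRNA-2.

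The siRNAs were also set against each other, since they name the same target. Of the 10 genes, 6 differed between siRNA-2 and siRNA-1, beside 32.7% of all tested genes (15.8% higher and 16.9% lower with siRNA-2). None of the 10 differed by 2-fold or more with a call, as 2.15% of tested genes did. ZEB2 (0.37, adjusted p = 9.86e-07), TWIST2 (0.22, adjusted p = 0.0061) and CDH11 (0.20, adjusted p = 0.00699) were higher with siRNA-2. TWIST1 (-0.55, adjusted p = 5.55e-08), EPCAM (-0.83, adjusted p = 4.16e-04) and CDH2 (-0.11, adjusted p = 0.0238) were lower with siRNA-2. For each of the 6, all libraries of one siRNA lay on 1 side of all libraries of the other, as for 15.7% of tested genes on the higher side and 16.3% on the lower side. The call on CDH2 was lost in 6 of 17 alternatives. CDH1 did not pass, with a difference of 0.19 (95% interval -0.37 to 0.75, adjusted p = 0.663), an interval that reaches 0.75 on the log2 scale.

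Genes that work with the EMT factors were described by list, and each list's counts stand beside 28.7% of all tested genes called higher and 24.9% lower with siRNA-1, and 30.0% higher and 26.2% lower with siRNA-2. Of 22 tested partners, relatives and corepressors, 10 were higher and 3 lower with siRNA-1 (median log2 fold change 0.15), and 13 were higher and 4 lower with siRNA-2 (median 0.17). ID1, a helix-loop-helix protein without a DNA-binding part that holds E proteins away from factors such as TWIST1, averaged 89.6 ± 2.22 CPM with siRNA-1, 126 ± 4.01 CPM with siRNA-2 and 58.3 ± 3.25 CPM with the scrambled siRNA (SD, n = 4 each). It rose by a log2 fold change of 0.62 with siRNA-1 (adjusted p = 2.11e-12) and 1.12 with siRNA-2 (adjusted p = 3.63e-17). EZH2, the methyltransferase of the Polycomb complex, was lower by -0.59 (adjusted p = 2.06e-10) and -0.46 (adjusted p = 1.45e-08). KDM1A, the demethylase that SNAI1 recruits, was higher by 0.57 with siRNA-1 and 0.37 with siRNA-2, though up to 80.2% of its reads lie in the overlapping LUZP1. HDAC1 was lower by -0.55 and -0.26, and all of its reads could belong to MARCKSL1, which overlaps it.

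Of 12 genes for turnover of the factors, 4 were higher and 5 lower with siRNA-1 (median -0.10), and 3 were higher and 6 lower with siRNA-2 (median -0.14). BTRC, the F-box protein that marks phosphorylated SNAI1 for degradation, averaged 36.3 ± 2.63 CPM with siRNA-1, 38.2 ± 1.40 CPM with siRNA-2 and 22.0 ± 0.951 CPM with the scrambled siRNA. It rose by log2 fold changes of 0.73 (adjusted p = 1.49e-11) and 0.80 (adjusted p = 1.98e-12). GSK3B, the kinase that primes SNAI1 for BTRC, was lower by -0.14 (adjusted p = 0.00642) and -0.32 (adjusted p = 2.18e-07). FBXO45, part of another ubiquitin ligase, was lower by -0.20 and -0.43, with up to 55.2% of its reads shared with WDR53. ATM, a kinase that stabilises ZEB1, was lower by -0.43 and -0.69, and all of its reads could belong to the overlapping NPAT. Without scrambled replicate 1, 2 genes of this list were higher with siRNA-1 in place of 4, and likewise 2 without the 2 libraries with the most ribosomal RNA.

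TGF-beta signals, which induce the factors in many cells, were mixed. Of 12 tested genes, 5 were higher and 2 lower with siRNA-1 (median 0.14), and 5 were higher and 5 lower with siRNA-2 (median 0.05). TGFBR2, the receptor that binds the ligands, fell to 195 ± 6.28 CPM with siRNA-1 and 224 ± 11.7 CPM with siRNA-2, against 353 ± 10.4 CPM with the scrambled siRNA (log2 fold changes of -0.86 and -0.66, adjusted p = 2.41e-15 and 3.12e-13). The ligand TGFB2 averaged 144 ± 7.09 CPM with siRNA-1, 86.3 ± 2.76 CPM with siRNA-2 and 74.1 ± 4.61 CPM with the scrambled siRNA. Its log2 fold change was 0.96 with siRNA-1 and 0.22 with siRNA-2, and the siRNAs differed by -0.74 (adjusted p = 1.87e-12). SMAD2, which carries the signal to the nucleus, was higher by 0.72 and 0.51, and SKIL, an inhibitor of the SMADs, was lower by -0.12 (adjusted p = 0.0292) and -0.56 (adjusted p = 1.8e-10).

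Of 20 other classical and atypical cadherins, 10 had enough reads to be tested, of which 2 were higher and 3 lower with siRNA-1 (median 0.05), and 3 were higher and 2 lower with siRNA-2 (median 0.28). CDH24, a type II cadherin, averaged 9.91 ± 0.558 CPM with siRNA-1, 7.84 ± 0.738 CPM with siRNA-2 and 4.19 ± 0.754 CPM with the scrambled siRNA, a rise of 1.24 (adjusted p = 2.13e-10) and 0.91 (adjusted p = 5.24e-08). CDH13, a cadherin anchored in the membrane by lipid, was lower by -0.33 and -0.20, with up to 23.7% of its reads in LOC105371366. CDH15, the cadherin of muscle, was higher by 1.89 and 1.50 at a mean under 1 CPM in every group, with up to 60.9% of its reads in SLC22A31. CDH18 was higher with siRNA-2 by 0.42 (adjusted p = 0.00533) and had 0.03 with siRNA-1 (adjusted p = 0.86).

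On the inner side of the junction, 19 catenins and adherens junction genes were tested, with 5 higher and 9 lower with siRNA-1 (median -0.24) and 3 higher and 9 lower with siRNA-2 (median -0.10). NECTIN2, a nectin that starts cell contacts, averaged 139.6 ± 5.50 CPM with siRNA-1, 130.3 ± 6.83 CPM with siRNA-2 and 76.9 ± 2.45 CPM with the scrambled siRNA (log2 fold changes of 0.86 and 0.76). ABLIM1, an actin-binding protein, fell to 8.20 ± 0.328 CPM with siRNA-1 and 5.64 ± 0.669 CPM with siRNA-2, against 16.4 ± 0.548 CPM with the scrambled siRNA (log2 fold changes of -0.9996 and -1.54). LPP, a LIM protein of adhesion sites, was lower by -0.68 and -1.02, with up to 20.2% of its reads in LPP-AS2. PKP4, an armadillo protein of junctions, was lower by -0.70 and -0.61, with up to 53.1% of its reads in PKP4-AS1. Of 14 genes for cadherin processing and trafficking, 6 were higher and 6 lower with siRNA-1 (median 0.01), and 5 were higher and 6 lower with siRNA-2 (median -0.01). PRKD2, a kinase of the secretory route, was higher by 0.76 and 0.82 and PIP5K1C, a lipid kinase, by 0.53 and 0.62, while PTPN14, a junction phosphatase, was lower by -0.61 and -1.04 and the kinase FER by -0.35 and -0.63.

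The genes on which EMT is usually read had members called higher and members called lower with each siRNA. As shares of tested genes these stand beside the same 28.7% higher and 24.9% lower with siRNA-1, and 30.0% higher and 26.2% lower with siRNA-2. Of 24 tested epithelial genes that EMT represses, 9 were higher and 6 lower with siRNA-1 (median 0.30), and 8 were higher and 7 lower with siRNA-2 (median 0.12). DSP, the desmoplakin of desmosomes, averaged 100.3 ± 6.26 CPM with siRNA-1, 109 ± 4.85 CPM with siRNA-2 and 46.2 ± 2.00 CPM with the scrambled siRNA (1.12 and 1.24). PKP3, another desmosome protein, was higher by 0.77 and 1.27, and up to 100% of its reads could belong to the overlapping LOC101059906. DSG2, a desmosomal cadherin, fell to 87.4 ± 3.02 CPM with siRNA-1 and 107 ± 3.78 CPM with siRNA-2, against 179 ± 11.2 CPM with the scrambled siRNA (-1.03 and -0.75), with up to 64.9% of its reads in DSG2-AS1. ELF3, an epithelial ETS factor, was lower by -1.88 and -1.30, though up to 100% of its reads could belong to the overlapping ELF3-AS1. Of 25 tested mesenchymal genes, 12 were higher and 8 lower with siRNA-1 (median 0.07), and 12 were higher and 7 lower with siRNA-2 (median 0.07). COL1A1, a chain of type I collagen, was higher by log2 fold changes of 1.80 and 1.04, and FN1, fibronectin, by 0.20 and 1.02. LOX, which crosslinks collagen, was higher by 1.24 and 1.44, with up to 98.0% of its reads in SRFBP1. Other genes of the list, named after their values were seen, were lower with both siRNAs. VIM, vimentin, was lower by -0.64 with siRNA-1 and -0.44 with siRNA-2, with up to 44.1% of its reads in VIM-AS1. The matrix protein TNC was lower by -1.92 and -0.58, the collagen receptor DDR2 by -0.49 and -0.85, and the receptor kinase AXL by -0.46 and -0.29. The adjusted p of each gene named here without one was under 0.05.

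**Figure D5:**
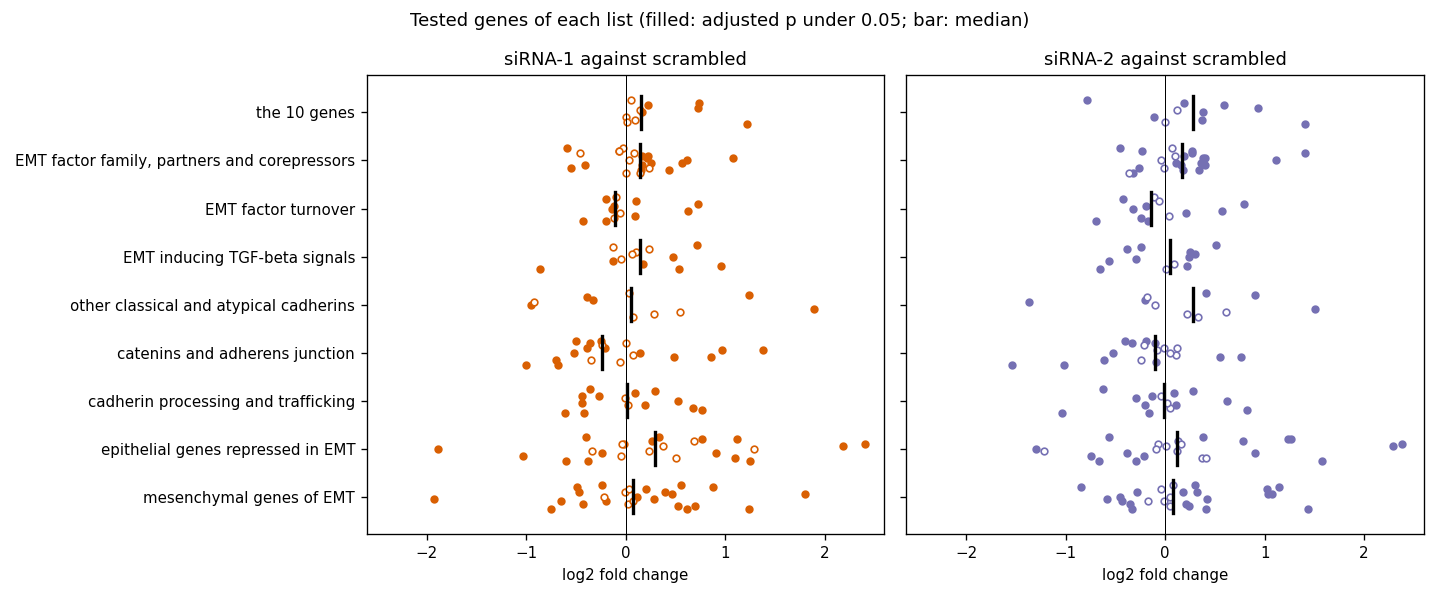
Log2 fold change of the 10 genes and of the tested genes of each list, for siRNA-1 (1 panel) and siRNA-2 (the other panel) relative to scrambled. Filled points have an adjusted p under 0.05 and bars mark the median. Points of each list lie on both sides of 0, and those of the 10 genes do so only with siRNA-2. CDH1 is the rightmost of the 10 genes in both panels. NECTIN4 with siRNA-2 (3.13) lies beyond the axis and is not shown.

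Between the siRNAs, siRNA-2 against siRNA-1, the lists split as follows, beside 15.8% of all tested genes called higher and 16.9% lower. The factor partners had 8 higher and 5 lower, the turnover genes 1 higher and 4 lower, the TGF-beta signals 3 higher and 7 lower, and the mesenchymal genes 13 higher and 7 lower. The other cadherins had 3 higher and 1 lower, the junction genes 3 higher and 5 lower, the processing genes 4 higher and 5 lower, and the epithelial genes 5 higher and 2 lower. Without the 2 libraries with the most ribosomal RNA the other cadherins had 1 higher and 0 lower, with 12 tested in place of 10. In that setting the junction genes had 3 higher and 3 lower, and the epithelial genes 5 higher and 1 lower. The processing genes with siRNA-2 against scrambled then had 3 higher in place of 5.

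The genes with the pattern most like each member were ranked by Pearson's r of log2 CPM over the 12 libraries, as a description. The closest to ZEB2 were GLI2 (r = 0.992), the transcription factor of hedgehog signalling, and ABHD15 (r = 0.991). For CDH11 they were STAT5A (r = 0.993) and PI4KB (r = 0.992), both of which overlap other genes that hold up to 100% and 89.8% of their reads. For TWIST1 they were LAPTM4A and EMC10 (r = 0.973 each), and for TWIST2 they were TMEM60 (r = 0.966) and PROM2 (r = 0.957). CDH2 was closest to ANKRD39 (r = 0.955) and LRRC59 (r = 0.931), SNAI2 to PCID2 (r = 0.925) and CTPS2 (r = 0.891), and ZEB1 to ZNF846 (r = 0.805) and MFAP5 (r = 0.789). Overlapping genes could also hold all reads of ABHD15, PCID2 and MFAP5, 36.8% of those of LAPTM4A and 39.3% of those of EMC10. The points share libraries and groups, so a gene that is higher with both siRNAs gives a high r whatever it does.

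Other values moved with the groups. The summed level of 9 epithelial markers was 55.3 to 68.8 CPM with siRNA-1, 49.1 to 59.1 CPM with siRNA-2 and 44.7 to 51.6 CPM with the scrambled siRNA. The largest by median were KRT5 (7.97 to 38.5 CPM) and CLDN4 (18.6 to 27.8 CPM), while CDH1 and EPCAM reached at most 0.742 and 1.64 CPM. CLDN4 was called lower with both siRNAs (log2 fold changes of -0.24 and -0.38), so the sum does not stand for each marker. Of the 9, 4 were above 1 CPM in every library and GRHL2 lay between 0 and 0.374 CPM. The summed level of the glioma and glial markers was 2774 to 3116 CPM with siRNA-1, 3246 to 3405 CPM with siRNA-2 and 3681 to 4032 CPM with the scrambled siRNA. VIM had the largest median of these (1923 CPM) and was lower with both siRNAs (-0.64 and -0.44). CD44 (0.30) and SOX9 (0.27) were called higher with siRNA-2. With siRNA-1, CD44 was called lower (-0.23) and SOX9 was not called (-0.07). This sum, too, does not stand for each marker. For 8 hematopoietic and endothelial markers the summed level was 71.0 to 86.2 CPM with siRNA-1, 153 to 183 CPM with siRNA-2 and 40.6 to 48.5 CPM with the scrambled siRNA, with CD68 at 34.9 to 179 CPM and CD3E at 11 reads in all. For 7 neuron and oligodendrocyte markers it was 28.8 to 33.0 CPM with siRNA-1, 31.0 to 33.9 CPM with siRNA-2 and 34.7 to 38.3 CPM with the scrambled siRNA. The summed level of 8 interferon-response genes was 1523 to 1611 CPM with siRNA-1, 2293 to 2443 CPM with siRNA-2 and 191 to 496 CPM with the scrambled siRNA, where replicate 1 was the highest. The part of these in the results on the 10 genes was not tested.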

How the data were processed

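RNA of 12 A172 libraries was sequenced, 4 with siRNA-1, 4 with siRNA-2 and 4 with a scrambled siRNA, grouped by the labels. The authors' deposited values are counts, whole numbers of reads in each hg38 interval, not normalized. The submitters' processing notes name Salmon and hg38; the interval counting tool is not given in these sources. Intervals span whole genes, introns included, and overlapping intervals share reads on either strand. Shares held by overlapping genes are therefore given, but not all of them. A gene printed without a share can still share reads with another. Values are bound by counting error and by this sharing.

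Of 49731 intervals, 45483 gene intervals were used. Left out were 962 ultraconserved and random regions, 26 with a number for a name, 19 copies on chromosome Y, 71 unmatched and over 1 Mb long, 589 under an older name, 1966 that extend more than 100 kb past the annotated gene, 32 of ribosomal RNA and 583 with the same counts as another interval (at least 100 reads). List and marker genes lost this way were CDH12, CDH4, ID3, MARVELD2, OCLN, SCRT1, TJP1, ZYX, AIF1, MOG and PTPRC.

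Tests across genes used edgeR 4.0.16 under R 4.3.3, with TMM scaling, low counts removed by filterByExpr (minimum total 15, minimum count 10), 1 robust quasi-likelihood model of group over all 12 libraries, two-sided tests, and Benjamini-Hochberg adjustment over all 25174 genes tested with a threshold of 0.05. Each SE was derived as |log2 fold change|/√F from the quasi-likelihood F statistic. The test was tried on simulated data before use, for siRNA-1 against scrambled. It recovered 26 of 50 planted changes of 1.25-fold, 40 of 50 of 1.5-fold and 49 of 50 of 2-fold. Of 24974 unchanged genes, 6 were called. Changes were planted only in genes at about 1 CPM or more with the scrambled siRNA, a level that CDH1 did not reach. Replicates of a group differed by more than sampling noise. Alternatives were DESeq2 1.42.0, its size factors within edgeR, a filter of at least 1 CPM in 4 libraries, no filter, protein-coding intervals, a replicate block, a fit to the compared groups alone, each library left out in turn, and overlapping intervals subtracted. Leaving out the 2 libraries with the most ribosomal RNA, and scrambled replicate 1 for the lists, was chosen after seeing the data.

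The 10 genes and the lists were chosen with earlier results of these data known. Named were the 10 genes, up to 4 genes past the threshold of each list by smallest p, and, for each of the 10 with average log2 CPM of at least 1, the 2 protein-coding genes with the highest Pearson's r (prior count 1). For 1 gene so chosen, the result is not reported here. Sequences come from RefSeq (GRCh38.p14) and GENCODE v29. RefSeq promoter entries were matched for ZEB1, ZEB2, TWIST2 and CDH2. Tables and figures used Python 3.11.15, pandas 2.3.3, scipy 1.17.1 and matplotlib 3.10.9.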

Additional observations from a re-analysis of the deposited data

Results flagged for a closer look

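ZEB2 in scrambled replicate 3 stood apart from its group. It had 24.0 CPM there, against 26.4, 26.4 and 26.0 CPM in the other scrambled libraries, a gap to the nearest of 0.856 of the group's range, past Dixon's 95% critical value for 4 samples. It was the only 1 of 30 groups of 4 libraries (10 genes in 3 groups) past that value, and chance flags about 1 in 20. Without this library ZEB2 was still called higher with both siRNAs.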

How the results depend on the processing

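Over 17 alternatives, or 16 for CDH1 (not tested under the filter of 1 CPM), the calls of 4 to 5 of the 10 genes with siRNA-1, 7 to 9 with siRNA-2 and 5 to 7 between the siRNAs held within 1.5 times of 5, 8 and 6. Of the fold changes of single genes, 482 kept their side of the threshold, 20 lost the call, 4 gained it and 1 reversed with a call. The 482 include estimates near 0 that changed sign without a call in either fit, such as ZEB1 with siRNA-1 (0.01, lowest -0.10). The reversal was ZEB1 with siRNA-2, at -0.16 (adjusted p = 0.00575) with overlapping intervals subtracted. That setting takes off all reads of ZEB1-AS1 although it overlaps ZEB1 only in part. The 4 gained were SNAI2 between the siRNAs (0.28 to 0.35). The lead of CDH2 over the gene after it moved to 1.98 times with interval length in place of exon length. Leaving out 1 library gave 4 to 5, 7 to 8 and 5 to 7 called genes of the 10, and 12651 to 12988, 13316 to 13815 and 7133 to 7660 of all genes, against 13473, 14137 and 8235. With the replicate block, 5, 8 and 6 of the 10 genes were called and 13376, 14093 and 8145 of all genes, so it changed no count of the 10; same-numbered libraries correlated at r = -0.0493 to 0.0554 in 12 pairs, so the numbers were not taken as pairs. The longest row of a symbol could not be tried because each had 1 row, and the level of genes under the count filter had none to show. At 5 to 18 reads in the scrambled libraries, the size of the CDH1 change is the least certain (between 0.96 and 1.54 for siRNA-1, and between 1.16 and 1.74 for siRNA-2).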

Other observations

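Of the list genes, 4 were called in opposite directions with the siRNAs, PRRX1, ACTA2, CD44 and TPM1. They were picked after their values were seen. The share of all tested genes called in opposite directions was not counted, so whether 4 is many or few is not known. PRRX1, a homeobox factor of mesenchyme, was lower with siRNA-1 by a log2 fold change of -0.41 (adjusted p = 3.10e-05) and higher with siRNA-2 by 0.40 (adjusted p = 3.06e-05), and the siRNAs differed by 0.81 (adjusted p = 3.56e-08). ACTA2, the smooth muscle actin, had -0.75 with siRNA-1 and 0.41 with siRNA-2 (adjusted p = 4.62e-06 and 0.00135), a difference of 1.16 (adjusted p = 5.19e-08). CD44, a receptor for hyaluronan, had -0.23 with siRNA-1 and 0.30 with siRNA-2, a difference of 0.54 (adjusted p = 2.66e-11). TPM1, a tropomyosin, was higher by 0.61 with siRNA-1 (adjusted p = 1.25e-11) and lower with siRNA-2 by -0.33 (adjusted p = 5.45e-07), a difference of -0.94 (adjusted p = 4.45e-14). Up to 100% of the reads of ACTA2 could belong to the overlapping FAS or STAMBPL1.

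Other epithelial and junction genes rose with both siRNAs. NECTIN4 was higher by 1.38 with siRNA-1 and 3.13 with siRNA-2 (adjusted p = 2.71e-05 and 2.25e-10), and the siRNAs differed by 1.75 (adjusted p = 5.74e-07). LLGL2, a polarity gene, was higher by 1.25 and 1.57, and MUC1, a membrane mucin, by 0.91 with each siRNA (adjusted p of 6.92e-11 and 4.81e-11), with up to 100% of the reads of MUC1 in LOC105371450.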
